A study of Mus musculus with 20 samples.

Results

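Tekt1, Tekt2, Tekt3, Tekt4 and Tekt5 encode tektins, and Odf1, Odf2 and Odf4 encode proteins of the outer dense fibres of the sperm tail. The 8 genes were taken by symbol from a mouse testis count table of 22066 symbols, and all 8 were among the 16534 that passed a filter on low counts and were tested. Poly(A)-selected RNA was sequenced from whole testes of male NSG mice, an immunodeficient strain, in 5 groups of 4 libraries. Mice of the High-VCR and Low-VCR groups carried a graft of B-ALL (acute lymphoblastic leukaemia of B-cell type) from a patient and were given vincristine, and differed in whether leukaemic infiltration of the blood was high or low. The VCR group was given vincristine with no engraftment named in its labels, the ALL group was engrafted and given no vincristine, and the NC group was the normal control. Per the labels' protocols the mice were 6 weeks old, grafts were 400000 cells injected into the tail vein, and vincristine sulfate, which blocks the assembly of microtubules, was injected at 0.5 mg/kg into the peritoneum in 3 weekly injections from day 69, with saline for controls. Because the injections began on day 69, 6 weeks cannot be the age at which the treated testes were taken. The labels do not say that each library came from a separate mouse, so the p-values below measure the spread between these samples.

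Tektins are filamentous proteins that lie along the inner wall of the doublet microtubules of cilia and flagella, where they are bundled with other microtubule inner proteins. Outer dense fibres are stiff cytoskeletal fibres that run along the outside of the doublets in the mammalian sperm tail. Both kinds of gene are transcribed in male germ cells, and their proteins are assembled into the flagellum as spermatids elongate. TSSK4, a testis-specific kinase named in the title of the series, is known in the mouse to phosphorylate ODF2.

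The libraries held 9425158 to 16357287 counts, so the 3 counts taken as a floor corresponded to at most 0.318 CPM (counts per 1000000 counts of a library), well below every value of the 8 genes. All CPM values were scaled by TMM, a method that adjusts library totals for differences in composition. The vincristine-treated libraries stood apart from the others. Mitochondrially encoded genes took 4.69% to 9.08% of counts in High-VCR, 4.87% to 8.31% in Low-VCR and 5.66% to 11.9% in VCR, against 1.78% to 2.11% in ALL and 1.87% to 2.60% in NC. On the first principal component, which held 69.7% of the variance, VCR replicate 1 was the farthest from the untreated libraries. The edgeR comparisons of the 8 genes that use VCR are therefore also given without it. Replicate SDs, other gene lists, exact tests and profiles include it. Library numbers formed a range of their own in NC and VCR, so comparisons of these groups with engrafted ones cannot be told apart from that range.

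In untreated testes the genes were abundant and even. Per kilobase of annotated exon, Odf1 stood at 2291 CPM in NC, far above the rest, followed by Tekt4 at 279.7, Tekt3 at 204, Tekt5 at 181, Odf4 at 173, Odf2 at 148, Tekt2 at 145 and Tekt1 at 125. Odf2 and Tekt2 lay closer together than their coefficients of variation, 6.61% and 9.72%. The Odf2 value divides by 9919 bases of merged exons from many transcripts and is therefore low for any single transcript, whereas the other genes had 1105 to 1997 bases. In High-VCR the order per kilobase was different below Odf1: Odf1 stood at 1145 CPM, Odf4 at 69.5, Odf2 at 57.9, Tekt5 at 43.3, Tekt3 at 38.9, Tekt4 at 29.6, Tekt1 at 27.6 and Tekt2 at 13.9. Tekt4, the second in NC, was thus the sixth in High-VCR by its mean. Coefficients of variation in High-VCR ran from 25.8% for Tekt5 to 77.3% for Tekt3, with 49.7% for Tekt4 and 68.3% for Tekt1. Close neighbours there, such as Tekt4 and Tekt1, therefore cannot be ordered.

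**Figure D1:**
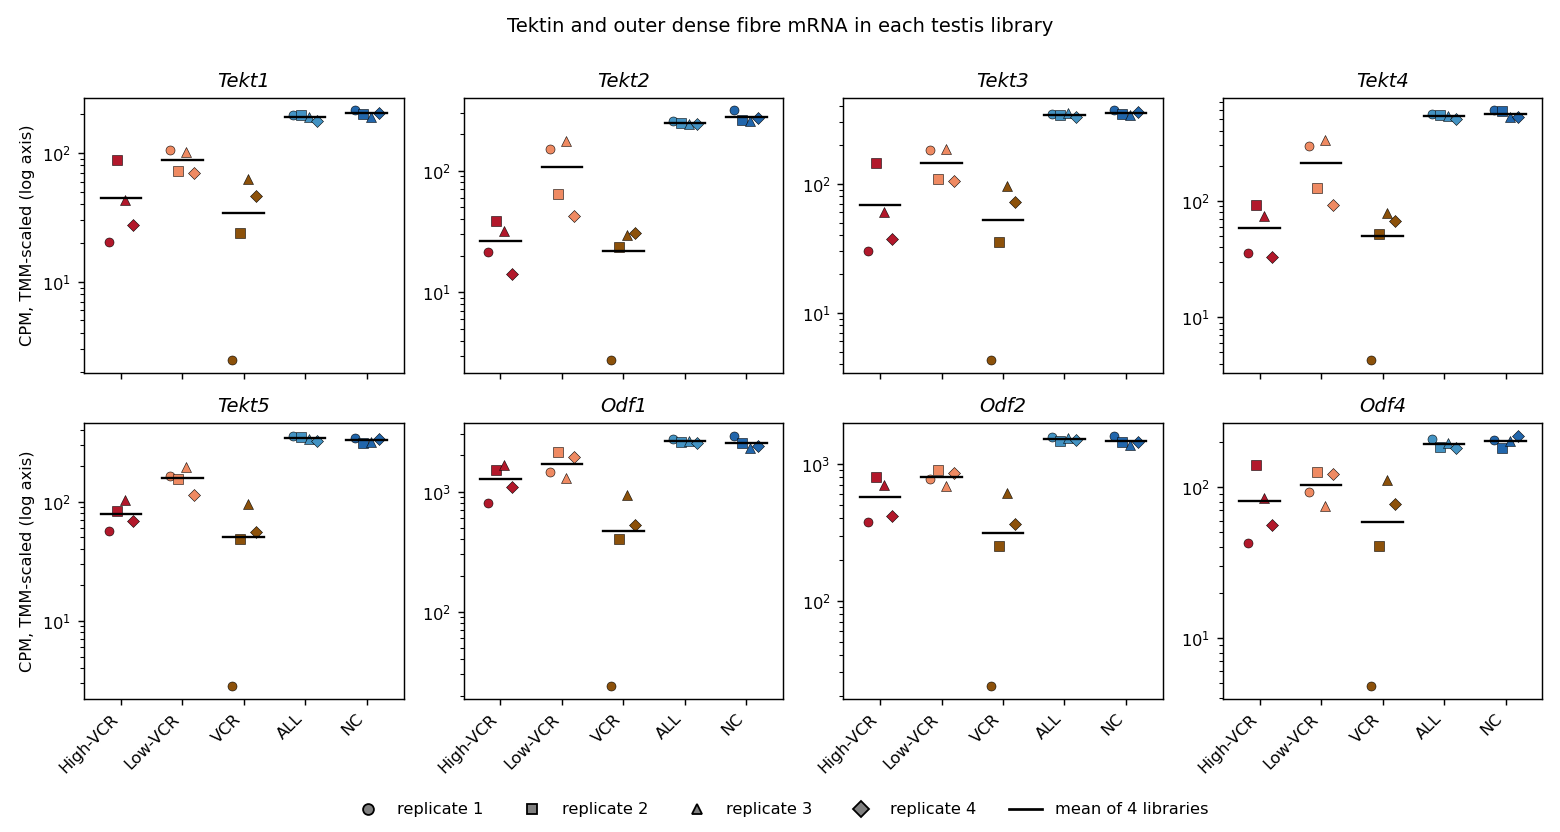
TMM-scaled CPM (log axis) of the 8 genes in each of the 20 libraries, with groups along the x axis, a symbol for each replicate and a bar at the mean of 4 libraries. ALL and NC lie close together and overlap except for Tekt2, the treated libraries lie below them for every gene, and VCR replicate 1 is the lowest library in every panel.

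The tektins were lower in all vincristine-treated groups than in untreated ones, and Tekt2 and Tekt4 were the lowest relative to untreated testes in High-VCR and VCR. Tekt2 encodes a tektin needed in the mouse for normal sperm motility and flagellar structure. Its level was 21.2, 38.5, 31.7 and 14.1 CPM in High-VCR replicates 1 to 4, 149, 64.3, 175 and 42.7 CPM in Low-VCR, 2.74, 23.5, 29.8 and 30.5 CPM in VCR, 253, 247, 242 and 239.8 CPM in ALL, and 314, 261, 255 and 270.1 CPM in NC. High-VCR lay below every Low-VCR library, Low-VCR below every ALL library, and ALL also below every NC library, though by less than the distance between NC replicates. In Low-VCR, replicates 1 and 3 were high and replicates 2 and 4 low.

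Tekt4, likewise required for forward sperm motility in the mouse, gave the same picture. It stood at 35.6, 92.6, 74.7 and 33.3 CPM in High-VCR, 294, 129, 335 and 92.9 CPM in Low-VCR, 4.27, 51.6, 78.7 and 66.6 CPM in VCR, 553, 547, 534 and 506 CPM in ALL, and 599.6, 587, 519.6 and 528 CPM in NC. ALL and NC overlapped, and no treated library reached either. Low-VCR replicates 1 and 3 were again the high ones, and the lowest Low-VCR library was only just above the highest High-VCR library.

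Tekt1, Tekt3 and Tekt5 also had all treated libraries below all untreated ones, but High-VCR and Low-VCR overlapped for Tekt1 and Tekt3. Tekt1 ranged over 20.4 to 88.5 CPM in High-VCR, 70.1 to 106 in Low-VCR, 2.44 to 63.2 in VCR, 179 to 196 in ALL and 191 to 215 in NC. Tekt3 ranged over 29.9 to 144 CPM in High-VCR, 106 to 185 in Low-VCR, 4.27 to 96.6 in VCR, 329.6 to 354 in ALL and 345 to 373 in NC. In both genes High-VCR replicate 2 was the high one, at 88.5 and 144 CPM. Tekt5, whose protein is a sperm-specific tektin in rodents, was at 57.0 to 104 CPM in High-VCR, 114 to 194 in Low-VCR, 2.82 to 94.9 in VCR, 324 to 357 in ALL and 309 to 340.5 in NC. Its High-VCR and Low-VCR libraries did not overlap.

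Odf1, the major outer dense fibre protein and a member of the small heat shock protein family that in the mouse also holds the sperm head to the tail, lay closer to its untreated level in the engrafted treated groups than in VCR. It stood at 798, 1503, 1663 and 1097 CPM in High-VCR, 1469.6, 2141, 1293 and 1942 CPM in Low-VCR, 24.0, 406, 931 and 531 CPM in VCR, 2764, 2599, 2654 and 2534 CPM in ALL, and 2914, 2517, 2317 and 2379 CPM in NC. High-VCR and Low-VCR overlapped, and ALL and NC overlapped. In Low-VCR the order was the opposite of that of Tekt2, with replicates 2 and 4 high and replicates 1 and 3 low.

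Odf2, a further core protein of the fibres whose longer products (cenexin) belong to the mother centriole, stood at 374, 803, 703 and 418 CPM in High-VCR, 776, 909, 688 and 866 CPM in Low-VCR, 23.8, 253, 613 and 365 CPM in VCR, 1576, 1485, 1548 and 1503 CPM in ALL, and 1607, 1439.8, 1381 and 1446 CPM in NC. The counts are per gene and do not separate fibre from centriolar transcripts. High-VCR overlapped both other treated groups, with its replicates 2 and 3 inside the Low-VCR range, whereas every Low-VCR library lay above every VCR library. Odf4, a testis protein of the sperm tail, ranged over 42.8 to 141 CPM in High-VCR, 74.4 to 126 in Low-VCR, 4.80 to 112 in VCR, 181 to 207 in ALL and 182 to 218 in NC. Its High-VCR replicate 2, at 141 CPM, was above every Low-VCR library.

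For every one of the 8 genes the treated means ran Low-VCR, then High-VCR, then VCR, from high to low, below ALL and NC. Neighbours in that order seldom passed the edgeR test, whose spread was estimated over all 5 groups. Of the neighbouring groups that were compared, only Tekt2 in High-VCR and Low-VCR passed it. Even so, every Low-VCR library lay below every ALL library for all 8 genes, as held for 29.4% of tested genes. With edgeR on Low-VCR and ALL alone all 8 genes were called. The place of VCR below High-VCR rested in part on VCR replicate 1. Without that library the edgeR log2 differences of High-VCR against VCR were -0.083 for Tekt2, -0.0057 for Tekt3 and -0.15 for Tekt4. Replicates were far tighter without vincristine. The SD of log2 CPM was 0.03 (Tekt2) to 0.09 (Odf4) in ALL and 0.05 to 0.15 in NC, against 0.37 to 1.01 in High-VCR, 0.18 (Odf2) to 0.97 (Tekt2) in Low-VCR and 1.66 to 2.36 in VCR. The VCR values include replicate 1, the lowest library for every one of the 8 genes. The median SD over all tested genes was 0.37 in High-VCR, 0.26 in Low-VCR, 0.40 in VCR, 0.15 in ALL and 0.18 in NC.

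The response to vincristine in mice without a named graft was tested by VCR against NC, with edgeR's quasi-likelihood test and Benjamini-Hochberg adjustment over all 16534 genes, and a call at an adjusted p under 0.05. All 8 genes fell, where 35.6% of all tested genes were called lower, and all 8 had no overlap between VCR and NC libraries, which held in this direction for 34.2% of genes. Tekt2 fell by 3.67 ± 0.57 on the log2 scale (edgeR estimate ± SE, n = 4 each, adjusted p 1.9e-05), which is 12.7-fold lower, and Tekt4 fell by 3.47 ± 0.62 (adjusted p 8.04e-05). Tekt3, Tekt5 and Tekt1 fell by 2.77, 2.70 and 2.58, and Odf1, Odf2 and Odf4 by 2.42, 2.23 and 1.78, on the log2 scale (edgeR adjusted p 0.00033 to 0.00758). Without VCR replicate 1 all 8 remained called, between -3.29 for Tekt2 and -1.39 for Odf4 on the log2 scale. When edgeR was fitted to VCR and NC alone, Odf4 no longer passed (adjusted p 0.0509). In whole testis RNA, fewer cells of a type and less RNA per cell cannot be told apart.

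Markers of other cells moved in the same comparison. All 18 genes of a round spermatid list fell, at a median log2 change of -3.80, as did all 12 elongating spermatid genes (median -2.40) and 8 of 10 pachytene spermatocyte genes (median -1.85), where 35.6% of all genes were called lower. The summed round spermatid markers were 63.4 to 1459 CPM in VCR and 5260 to 5811 CPM in NC. In contrast 14 of 15 Sertoli cell genes, 7 of 7 Leydig cell genes and 8 of 9 macrophage genes rose, where 42.1% of all genes were called higher, and 1 macrophage gene fell. By smallest adjusted p, Catsper3, Izumo1 and Spaca3 of the round spermatid list fell by 4.66, 4.45 and 4.23 on the log2 scale, Cabyr, Prm3 and H1f9 of the elongating list by 3.83, 2.62 and 2.50, and Calr3, Pgk2 and Tbpl1 of the pachytene list by 2.25, 2.28 and 1.66. The Sertoli genes Shbg, Inha and Cldn11 rose by 2.82, 2.19 and 2.33, the Leydig genes Nr5a1, Hsd3b1 and Star by 2.87, 3.88 and 2.65, and the macrophage genes Lyz2, C1qa and Csf1r by 3.56, 3.23 and 3.35. Sertoli genes summed to 7404 to 11515 CPM in VCR and 1729 to 2023 CPM in NC, Leydig genes to 6771 to 15566 CPM in VCR and 1160.2 to 1919 CPM in NC, and macrophage genes to 648 to 1004 CPM in VCR and 214 to 224 CPM in NC. The part of these shifts, and of the mitochondrial share, in the fall of the 8 genes was not tested. Tektins are also made in multiciliated cells of the excurrent ducts. Of 9 genes marking such cells or the ducts, Mcidas, Sntn, Lcn5, Lcn8 and Crisp1 averaged under 0.3 CPM in all groups, Gmnc under 0.7, and 3 were tested, of which Ccno and Rnase10 fell and Cst11 rose in VCR against NC. The 3 tested genes summed to 3.50 to 7.15 CPM in VCR and 9.99 to 11.7 CPM in NC.

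High-VCR against ALL sets treated mice of high infiltration against engrafted mice without vincristine. The ALL group is not split by infiltration, so the drug and the infiltration class cannot be told apart here. All 5 tektins and 2 of the 3 outer dense fibre genes fell, 7 of 8 in all, where 30.5% of tested genes were called lower by edgeR. Tekt2 fell by 3.22 ± 0.56 on the log2 scale (edgeR adjusted p 6.73e-05), 9.31-fold, and Tekt4 fell by 3.18 ± 0.61 (edgeR adjusted p 0.000192). Tekt3, Tekt5 and Tekt1 fell by 2.33, 2.12 and 2.09 on the log2 scale. Odf2 fell by 1.41 ± 0.53 (edgeR adjusted p 0.0251) and Odf4 by 1.25 ± 0.55 (edgeR adjusted p 0.0489). Odf1, at -1.06 ± 0.57, did not pass in edgeR (adjusted p 0.104), though no High-VCR library overlapped ALL for any of the 8 genes, as held in this direction for 29.1% of genes.

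The Odf4 and Odf2 calls were fragile. The Odf4 call was lost without any single ALL library (adjusted p 0.0682 to 0.0821 in edgeR), without High-VCR replicate 1, 3 or 4 (0.131, 0.0794 and 0.118 in edgeR), and with library-number range as a term (0.0541 in edgeR). The Odf2 call was lost without High-VCR replicate 1 or 4 (0.0721 and 0.0679 in edgeR). Both were lost with library size alone (edgeR adjusted p 0.0518 for Odf2 and 0.0945 for Odf4) or with limma voom. Odf1 passed with DESeq2 (adjusted p 0.029), with scaling on Sertoli genes (0.00102) and with edgeR on these groups alone (0.00102). Odf2 and Odf4 also passed in each of these settings, where 8 of 8 genes were called. They kept their calls with DESeq2 size factors and with upper-quartile scaling as well, where 7 of 8 genes were called. Scaling on Sertoli genes by itself moved the median log2 change of all genes by -1.86 here. Without High-VCR replicate 2 the Tekt3 change was -3.01 on the log2 scale.

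**Figure D2:**
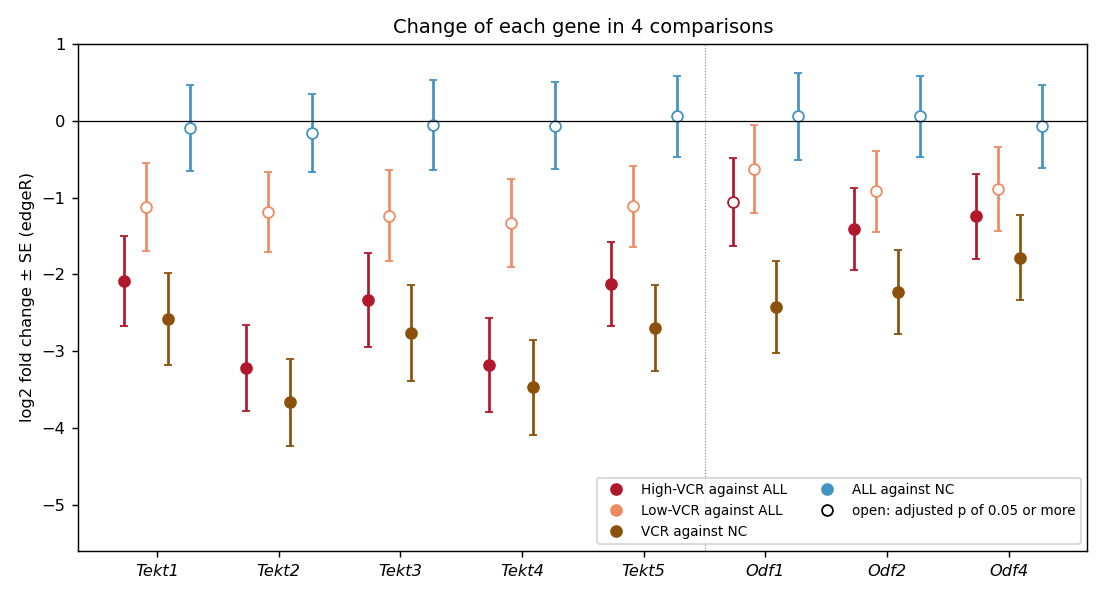
Log2 fold change ± SE from edgeR for the 8 genes, in High-VCR against ALL, Low-VCR against ALL, VCR against NC and ALL against NC, with filled points at an adjusted p under 0.05. Tekt2 and Tekt4 lie lowest in High-VCR against ALL and VCR against NC, at -3.67 to -3.18, and all points of Low-VCR against ALL are open.

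Low-VCR against ALL sets treated mice of low infiltration against the same ALL libraries as the preceding comparison, again without a matching infiltration class. The 8 log2 changes lay between -1.33 ± 0.57 for Tekt4 and -0.62 ± 0.57 for Odf1, with Tekt2 at -1.19 ± 0.52. None passed in edgeR (adjusted p 0.0601 for Tekt4 to 0.344 for Odf1), where 15.2% of all genes were called lower, and 2 of 8 had an unadjusted p under 0.05. Yet for all 8 genes every Low-VCR library lay below every ALL library, as held for 29.4% of tested genes. This count of calls depended on how the spread was estimated and scaled. It was 8 with edgeR on these groups alone (adjusted p 2.77e-05 for Odf2 to 0.0281 for Tekt2), which leaves the widely spread VCR libraries out of the estimate, and 6 with DESeq2 but 0 with limma voom. It was 8 with scaling on Sertoli genes, 4 with DESeq2 size factors and 2 with upper-quartile scaling, and without Low-VCR replicate 3 Tekt2 and Tekt4 passed (edgeR adjusted p 0.0360 and 0.0444). Scaling on Sertoli genes moved the median log2 change of all genes by -1.60, so calls of lower genes under it follow in part from the scaling.

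Marker lists were also followed in both comparisons with ALL. In High-VCR all 18 round spermatid genes fell (median log2 change -3.22), as did 6 of 12 elongating spermatid genes (median -1.32) and 7 of 10 pachytene genes (median -1.35), where 30.5% of all genes were called lower. In Low-VCR the counts were 6 of 18 (median -1.22), 1 of 12 (median -0.88) and 0 of 10 (median -0.89), where 15.2% of all genes were called lower. The elongating spermatid and pachytene counts in Low-VCR thus did not exceed that share. Round spermatid markers summed to 699 to 1858 CPM in High-VCR and 1731 to 2951 CPM in Low-VCR, against 5119.8 to 5669.8 CPM in ALL. The Sertoli markers summed to 5798 to 9934 CPM in High-VCR and 5569 to 7307 CPM in Low-VCR, against 1617 to 1719.6 CPM in ALL. Of the Sertoli genes 14 of 15 rose in each comparison, of the Leydig genes 7 of 7, and of the macrophage genes 8 of 9 in High-VCR and 7 of 9 in Low-VCR, with 1 lower in each. Of all genes, 42.4% were called higher in High-VCR against ALL and 36.4% in Low-VCR against ALL. Leydig markers summed to 6393 to 13294 CPM in High-VCR and 4714 to 5975 CPM in Low-VCR, against 1208 to 1605 CPM in ALL, and macrophage markers to 514 to 934 CPM in High-VCR and 503 to 601 CPM in Low-VCR, against 226 to 273 CPM in ALL. Their part in the changes of the tektin and outer dense fibre genes was not tested. Within each of the 2 library-number ranges shared by the engrafted groups, all 8 genes were lower in High-VCR than in ALL (log2 differences -3.10 to -1.09 and -3.40 to -0.91) and lower in Low-VCR than in ALL (-1.38 to -0.57 and -1.28 to -0.68), without a test at 2 libraries a side.

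Between engrafted and normal testes without vincristine, differences in the 8 genes were within their errors. In ALL against NC the log2 differences were -0.16 ± 0.51 for Tekt2 to 0.06 ± 0.57 for Odf1. None passed in edgeR (adjusted p 1 for all), 0 had an unadjusted p under 0.05, and DESeq2 and limma voom also called 0, as edgeR called 0% of all genes lower although 748 genes had an unadjusted p under 0.05. Only for Tekt2 did the groups not overlap, at 239.8 to 253 CPM in ALL and 255 to 314 CPM in NC, 1 of 8 where 5.49% of all genes had every ALL library below every NC library. The standard errors of 0.51 to 0.58 come from a spread estimated over all 5 groups, and ALL and NC replicates were tighter than that. With edgeR on ALL and NC alone the calls were again 0, with Tekt2 at -0.15 (unadjusted p 0.0543, adjusted p 0.348).

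High-VCR against Low-VCR compares the infiltration classes under the same drug dose. Tekt2 fell by 2.03 ± 0.53 on the log2 scale (4.09-fold, edgeR adjusted p 0.0311), averaging 26.4 ± 10.9 CPM in High-VCR and 108 ± 64.3 CPM in Low-VCR (SD, n = 4 each). It was the only one of 8 to pass, where 4.69% of genes were called lower. For Tekt2, Tekt4 and Tekt5, 3 of 8, every High-VCR library lay below every Low-VCR library, as held for 4.94% of all genes. Tekt4 was at -1.85 ± 0.58 (edgeR adjusted p 0.0575), the remaining tektins at -1.10 to -0.97, and Odf1, Odf2 and Odf4 at -0.44, -0.50 and -0.36, with adjusted p of 0.229 to 0.686 in edgeR. The Tekt2 call was lost without Low-VCR replicate 1 or 3 (edgeR adjusted p 0.0938 and 0.103), without High-VCR replicate 1 or 4 (0.106 and 0.111 in edgeR), with these groups alone (0.0748), with Sertoli scaling (0.0511) and with limma voom (0.0614), while DESeq2 called both Tekt2 and Tekt4. Without High-VCR replicate 2, edgeR called Tekt3 and Tekt4 as well, and without Low-VCR replicate 4 it called Tekt4. Within both library-number ranges all 8 genes were lower in High-VCR than in Low-VCR (-1.84 to -0.25 and -2.25 to -0.23, log2). In the same comparison 9 of 18 round spermatid genes fell (median -1.97) and 3 of 7 Leydig genes rose, where 3.13% of all genes were called higher. The other lists moved little, with 1 of 12 elongating spermatid genes lower (median -0.44) and 0 of 10 pachytene genes called (median -0.43). Of the Sertoli genes 0 of 15 were called, and 1 of 9 macrophage genes rose. Their part in the Tekt2 change was not tested.

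Between drug-treated groups with and without a named graft, Low-VCR lay above VCR. Tekt2 rose by 2.32 ± 0.54 on the log2 scale (edgeR adjusted p 0.00707), Tekt4 by 2.08 ± 0.59 (0.0166 in edgeR), Odf1 by 1.86 ± 0.59 (0.0268 in edgeR) and Tekt5 by 1.64 ± 0.54 (0.0315 in edgeR), 4 of 8 where 16.7% of genes were called higher. The others were at 0.82 for Odf4 to 1.47 for Tekt3 and did not pass. Without VCR replicate 1 these 4 remained called at 1.95, 1.70, 1.46 and 1.25 and Odf2 passed too, at 0.98. The Tekt5 call was lost without VCR replicate 2 or Low-VCR replicate 1, 2 or 3, and the Odf1 call without VCR replicate 2 or Low-VCR replicate 2 (edgeR adjusted p 0.0506 to 0.0800 over these). Without VCR replicate 3, edgeR added Tekt1, Tekt3 and Odf2, for 7 calls. DESeq2 and limma voom each called 7, Sertoli scaling 2, and edgeR on these groups alone 0 (adjusted p 0.105 for Tekt2). Of the round spermatid genes 14 of 18 and of the elongating spermatid genes 10 of 12 rose in Low-VCR against VCR, and 6 of 7 Leydig and 7 of 9 macrophage genes fell, where 13.6% of all genes were called lower. Only 2 of 10 pachytene genes and 1 macrophage gene rose, and of 15 Sertoli genes 1 rose and 2 fell. Their part was not tested.

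Between High-VCR and VCR the libraries of all 8 genes overlapped. The log2 differences were 0.23 ± 0.57 for Tekt4 to 1.42 ± 0.58 for Odf1. No gene of the 8 passed in edgeR (adjusted p 0.549 to 0.925), DESeq2 or limma voom, 1 had an unadjusted p under 0.05 (Odf1), and 0.00605% of all genes, which is 1 gene, was called higher. Tekt2, Tekt3 and Tekt4 turned to -0.083, -0.0057 and -0.15 without VCR replicate 1, and Tekt1, Tekt3 and Tekt4 to -0.17, -0.30 and -0.073 without High-VCR replicate 2.

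Whether the response differed between engrafted mice and those with no named graft was tested by interaction terms. Because ALL is not split by infiltration, these terms also carry the infiltration class. For Low-VCR against ALL minus VCR against NC, Tekt2 was at 2.48 ± 0.73 on the log2 scale (edgeR adjusted p 0.0558) and Odf1 at 1.80 ± 0.81 (edgeR adjusted p 0.172). None of 8 passed in edgeR, 4 had an unadjusted p under 0.05, and 3.81% of all genes were called higher. DESeq2 and upper-quartile scaling each called Tekt2 alone (adjusted p 0.0121 and 0.0496) and limma voom 0. Without VCR replicate 1 edgeR called Tekt2, Tekt5 and Odf1 (2.11, 1.19 and 1.40), and without VCR replicate 3 or Low-VCR replicate 4 it called Tekt2 (2.67 and 2.74). For High-VCR against ALL minus VCR against NC the 8 terms were 0.29 for Tekt4 to 1.36 for Odf1, with edgeR adjusted p of 0.970 to 0.972. None had an unadjusted p under 0.05, DESeq2 and limma voom called 0, and 0.00605% of all genes was called higher. Without VCR replicate 1 the terms were -0.092 for Tekt4 to 0.96 for Odf1.

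Tektins and outer dense fibre genes did not keep a constant ratio within libraries. Ratios within a library do not depend on how libraries are scaled. Odf1 counts per Tekt2 count were 37.6, 39.0, 52.4 and 78.0 in High-VCR, 9.85, 33.3, 7.37 and 45.5 in Low-VCR, 8.75, 17.2, 31.3 and 17.4 in VCR, 10.9, 10.5, 10.9 and 10.6 in ALL, and 9.28, 9.65, 9.10 and 8.81 in NC. High-VCR lay wholly above ALL and NC, whereas Low-VCR replicates 1 and 3 lay below every ALL library, replicate 3 also below every NC library, and replicates 2 and 4 well above both groups. VCR replicate 1, in which both genes were lowest, had a ratio like that of NC.

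**Figure D3:**
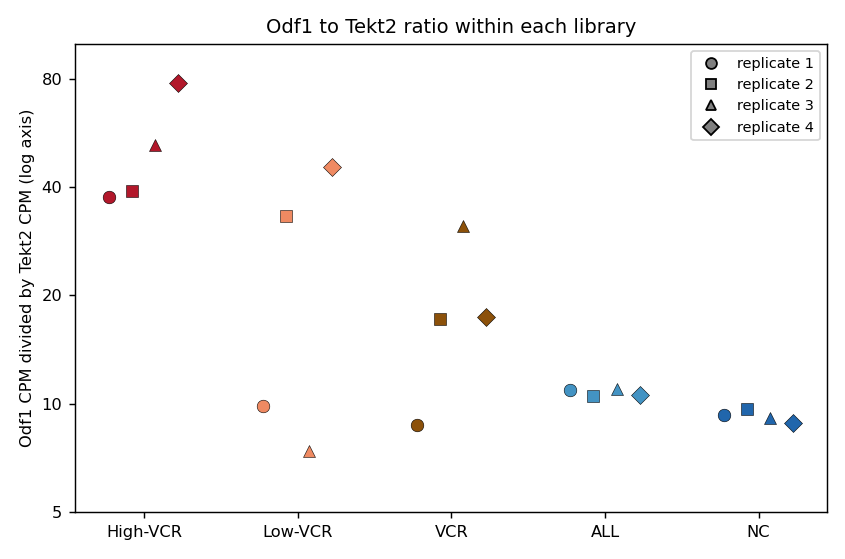
Odf1 CPM divided by Tekt2 CPM (log axis) in each of the 20 libraries, by group and replicate. All 4 High-VCR libraries are at 37.6 or above, Low-VCR libraries are spread over 7.37 to 45.5, and ALL and NC keep to 8.81 to 10.9.

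The same held for the families as wholes. The mean log2 CPM of the 5 tektins minus that of the 3 outer dense fibre genes was -3.17 to -2.73 in High-VCR, -2.86 to -1.13 in Low-VCR and -2.56 to -1.85 in VCR, against -1.59 to -1.50 in ALL and -1.50 to -1.44 in NC. In Low-VCR the tektin mean was 7.41, 6.66, 7.54 and 6.35 log2 CPM in replicates 1 to 4 and the outer dense fibre mean 8.89, 9.29, 8.67 and 9.21. The round spermatid list ran with the tektins there, at 6.72, 5.85, 6.77 and 5.24 log2 CPM, and the elongating spermatid list with the outer dense fibre genes, at 9.21, 9.61, 9.03 and 9.43. Replicates 1 and 2 belonged to the lower library-number range and replicates 3 and 4 to the upper one, so each range held a Low-VCR library of either kind. The pachytene list ran with the outer dense fibre genes, at 7.71, 8.09, 7.45 and 8.16 log2 CPM, and the share of mitochondrial counts was 5.42%, 8.31%, 4.87% and 5.70%. The part of these values in the ratio was not tested.

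Each gene was also set against the mean of the round spermatid list within libraries, with an exact two-sided permutation test that cannot go below 0.0286 for 4 libraries against 4. In High-VCR against ALL, Odf1 was 1.77, Odf4 1.50, Odf2 1.40 and Tekt5 0.74 log2 units higher relative to the list, each at that smallest exact p with no overlap. In VCR against NC, Odf4 was 1.38, Odf2 0.86 and Tekt1 0.61 higher, also at the smallest exact p. Tekt2 was -0.38 and Tekt4 -0.41 relative to the list in High-VCR against ALL (exact p 0.143 each). Over the 24 tests none passed after Benjamini-Hochberg adjustment (lowest adjusted exact p 0.0980). With exact p limited to 0.0286, an adjusted p under 0.05 needed most of the 24 tests at that limit. Not passing is therefore no evidence of equal levels. With elongating spermatid genes in place of the list, Odf1 was 0.42 higher in High-VCR against ALL and Tekt2 and Tekt4 were -1.73 and -1.76, all at the smallest exact p (adjusted 0.0762). Several directions depended on the list. Tekt5 in High-VCR against ALL was -0.60 with elongating spermatid genes and -0.71 with pachytene genes, and in VCR against NC Tekt1 and Odf2 were -0.87 and -0.62 with pachytene genes, each also at the smallest exact p.

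The profiles of the 8 genes over the 20 libraries were compared by the root mean square difference of log2 CPM, centred per gene. It is a description over libraries that share groups and depth. Tekt1 and Tekt3 were the closest pair at 0.14, followed by Tekt2 and Tekt4 at 0.17, Odf2 and Odf4 at 0.27 and Odf1 and Odf2 at 0.29. The farthest pair was Tekt2 and Odf1 at 1.04. Tekt5 lay between the families, at 0.36 from Odf2 and 0.37 from Tekt1.

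**Figure D4:**
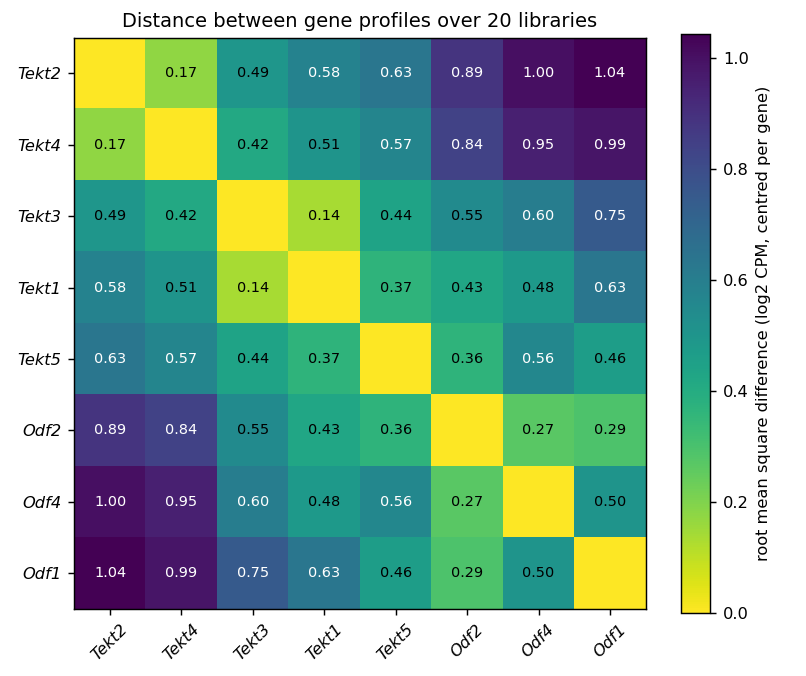
Root mean square difference in log2 CPM, centred per gene, between every pair of the 8 genes over 20 libraries, darker for larger differences. Tekt2 and Tekt4 form one close pair and Tekt1 and Tekt3 another, and the 3 outer dense fibre genes lie at 0.84 to 1.04 from Tekt2 and Tekt4.

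By the same measure over 20 libraries, the 2 named genes nearest to each member were found among all tested genes. Tekt2 was nearest to Cfap95 (0.13) and Ccdc105 (0.16), and Tekt4 to Cfap95 (0.14) and Actl7b (0.16). Cfap95 encodes a doublet microtubule inner protein, Ccdc105 (Tektl1) a tektin-like protein and Actl7b a testis actin-like protein. Tekt1 was nearest to Lypd4 (0.09) and Acr (0.13), Tekt3 to Cfap45 (0.12) and Acr (0.13), and Tekt5 to Stpg3 (0.14) and Actl7a (0.14). Acr encodes the protease acrosin of the acrosome and Cfap45 a further doublet inner protein. Odf1 was nearest to Oaz3 (0.07), a testis antizyme of late spermatids, and Gsg1 (0.10), Odf2 to Aqp11 (0.11) and Gapdhs (0.11), the glycolytic enzyme of the sperm tail, and Odf4 to Cep63 (0.13) and Cetn1 (0.13), both centrosomal.

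Other genes of the same structures moved with the members. Of 27 further doublet microtubule inner protein genes, 27 fell in VCR against NC (median log2 change -2.39), 27 in High-VCR against ALL (median -1.93) and 10 in Low-VCR against ALL (median -0.98), none rose, and 6 fell in High-VCR against Low-VCR. In the same order, 35.6%, 30.5%, 15.2% and 4.69% of all tested genes were called lower. Cfap141, Pierce1 and Dusp3 had the smallest adjusted p in VCR against NC, at -2.70 ± 0.28, -2.53 ± 0.29 and -1.85 ± 0.24 (edgeR adjusted p 2.42e-07, 7.15e-07 and 2.32e-06). In Low-VCR against ALL, Cfap141 fell by 0.97 ± 0.26 and Dusp3 by 0.89 ± 0.23, with edgeR adjusted p of 0.00567 and 0.00402. For comparison, the median over all tested genes was 0.10 in VCR against NC, 0.16 in High-VCR against ALL and 0.08 in Low-VCR against ALL.

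The outer dense fibre relatives Odf2l, Odf3, Odf3b and Odf3l1 all fell in VCR against NC (median -2.93), and 3 of these 4 in High-VCR against ALL. Of all tested genes, 35.6% and 30.5% were called lower in these comparisons. Odf3l2, at under 0.05 CPM in all groups, was not tested. Odf3l1 fell farther than any of the 8 genes, by 4.78 ± 0.69 in VCR against NC, to 5.51 CPM in VCR against 152 CPM in NC, and it also fell by 2.89 ± 0.63 in High-VCR against Low-VCR (edgeR adjusted p 8.3e-06 and 0.0215). Odf3, now named Cimap1a, fell by 3.22 ± 0.48 in VCR against NC (edgeR adjusted p 1.21e-05). Odf2l, a paralogue of Odf2 at centrioles, was at -0.83 ± 0.43 in High-VCR against ALL and did not pass (edgeR adjusted p 0.0885).

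Genes that couple the head to the tail or form the manchette, the microtubule skirt that shapes the spermatid head, fell in 10 of 10 cases in VCR against NC, 8 of 10 in High-VCR against ALL and 1 of 10 in Low-VCR against ALL, beside 35.6%, 30.5% and 15.2% of all genes in these comparisons. Sun5, a nuclear envelope protein that anchors the tail in the mouse, fell by 4.81 ± 0.69 in VCR against NC and by 2.36 ± 0.62 in High-VCR against Low-VCR (edgeR adjusted p 8.46e-06 and 0.0316). Spag4 fell by 2.75 ± 0.34 and Hook1 by 2.41 ± 0.46 in VCR against NC (edgeR adjusted p 1.76e-06 and 0.000156), and Spag4, the 1 of 10 called in Low-VCR against ALL, was at -1.01 ± 0.33 (edgeR adjusted p 0.0161). Tssk4 averaged 6.16 ± 3.27 CPM in High-VCR, 37.9 ± 25.5 in Low-VCR, 4.26 ± 3.38 in VCR, 87.1 ± 5.42 in ALL and 108 ± 9.08 in NC (SD, n = 4 each).

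Transcription factors known to drive cilium or spermatid genes fell as well, 6 of 6 in VCR against NC and in High-VCR against ALL and 3 of 6 in Low-VCR against ALL. The shares of all genes called lower were 35.6%, 30.5% and 15.2%. Rfx1, Rfx3 and Foxj1 were the 3 in Low-VCR, at -1.01 ± 0.26, -1.15 ± 0.34 and -1.41 ± 0.58 (edgeR adjusted p 0.00366, 0.0103 and 0.0495). RFX factors bind the X-box motif of ciliary promoters, FOXJ1 is the main activator of motile cilium genes, and CREM activates genes of round spermatids through the cAMP response element. Foxj1 fell by 4.56 ± 0.66 in VCR against NC, by 3.70 ± 0.63 in High-VCR against ALL and by 2.30 ± 0.60 in High-VCR against Low-VCR (edgeR adjusted p 9.51e-06, 5.88e-05 and 0.0309). Rfx1 fell by 2.49 ± 0.27 and Rfx3 by 3.05 ± 0.38 in VCR against NC (edgeR adjusted p 3.66e-07 and 1.52e-06). Crem fell by 2.30 ± 0.56 in VCR against NC and by 1.85 ± 0.55 in High-VCR against ALL (edgeR adjusted p 0.00123 and 0.00609), and Rfx2, the RFX factor known for spermiogenesis in the mouse, by 1.74 ± 0.57 and 1.52 ± 0.57 (edgeR adjusted p 0.0108 and 0.0237). What part these factors had in the falls of the tektin and outer dense fibre genes was not tested.

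The promoters of the members were searched for the X-box and the cAMP response element. RefSeq windows of 250 bases before to 50 bases after the start site (GRCm38.p6, an older build than the GRCm39 of the counts) were at hand for 7 of the 8 genes, Odf1 excepted, in 13 windows. All windows were searched on both strands for GTTGCC, an arm of the X-box, for GTTGCT, a variant arm added after the windows were seen, and for TGACGTCA and TGACG, the cAMP response element and its core, which overlap. One X-box arm or the other was present in all 5 tektin genes and absent from the windows of Odf2 and Odf4, 5 of 7 genes beside 27.9% of all 27025 genes of the table. Counted by window, it was in 6 of the 13 and in 25.1% of all 32851 windows. GTTGCC alone was in 3 of 7 genes (Tekt1, Tekt2 and Tekt4) beside 14.1% of all genes. GTTGCT was in 4 of 7 (Tekt2, Tekt3, Tekt4 and Tekt5) beside 16.7%. Tekt2 and Tekt4 were the 2 genes with a paired, inverted arrangement GTTGCNNNGCAAC, also sought after seeing the windows. It overlaps the arms and occurred in 0.252% of all genes. Because GTTGCT and the paired arrangement were chosen from these same windows, their presence there is no test. The same holds for the count of genes with one arm or the other, which includes GTTGCT. A link of any of these motifs to the size of the falls was not tested. TGACGTCA was in none of the members' windows (1.79% of all windows) and TGACG in the genes Odf2 and Tekt1 (23% of all genes). A match is a description of letters and not a shown binding site. The stretches around the arms upstream of the start site follow for the 5 tektins, to show which of them carry the paired arrangement. They run 5′ to 3′ on the strand of the gene, with arms on either strand in capitals. The Tekt4 window held a further GTTGCC on the opposite strand at base 9 after the start site.
Tekt1, chr11:72361883-72361942, minus strand: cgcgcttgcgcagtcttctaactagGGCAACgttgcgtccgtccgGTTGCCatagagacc
Tekt2, chr4:126325689-126325809, minus strand: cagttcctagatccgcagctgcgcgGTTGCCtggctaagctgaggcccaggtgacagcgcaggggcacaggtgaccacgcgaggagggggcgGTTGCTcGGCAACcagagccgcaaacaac
Tekt3, chr11:63061604-63061658, plus strand: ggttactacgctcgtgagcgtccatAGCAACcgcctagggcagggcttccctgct
Tekt4, chr17:25471529-25471589, plus strand: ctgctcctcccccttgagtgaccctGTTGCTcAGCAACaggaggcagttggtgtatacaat
Tekt5, chr16:10395660-10395705, minus strand: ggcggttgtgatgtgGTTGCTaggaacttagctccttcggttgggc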

How the data were processed

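The authors deposited raw counts, as whole numbers, for every gene symbol in 20 testis libraries. Trimmomatic 0.39, STAR 2.7.10b, featureCounts of Subread 2.0.3, DESeq2 1.36.0 and the build GRCm39 (mm39) are named, per the submitters' processing notes. Libraries were directional and poly(A)-selected, per the labels' protocols. The annotation, the strand setting and any removal of human reads are not given in the sources used here. In GENCODE, Tekt2 and Odf2 overlap opposite-strand genes (Gm12945 and Gm23865) that have no row in the table. Samples were grouped by title, the labels record 1 batch, and every 2 libraries of the same group differed by more than counting error (lowest chi-square per degree of freedom 3.78 over 30 pairs).

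In R 4.3.3, edgeR 4.0.16 (TMM, filterByExpr with a minimum count of 10, robust glmQLFit of 5 group means over 20 libraries, glmQLFTest) gave each comparison, with Benjamini-Hochberg adjustment over 16534 genes. Each standard error is the log2 fold change divided by the root of its F value. Within-library comparisons used log2(CPM + 1). Alternatives were DESeq2 1.42.0, limma voom 3.58.1, other scalings and filters, only the groups compared, a replicate block, library-number range as a term, and each library left out. Scripts were tested on simulated data with the same spread set for all genes and groups. The groups here differed widely in spread, so that test does not bear on the calls. The genes and lists were chosen with earlier results of these data known. All 8 genes were described in every comparison. From each other list, counts and medians were given and up to 3 genes with the smallest adjusted p in VCR against NC were named; Rfx2, Crem and Odf2l were added after their values were seen. Tssk4 was named because the title of the series names it.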

Additional observations from a re-analysis of the deposited data

How the results depend on the processing

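Directions in VCR against NC, Low-VCR against ALL and High-VCR against ALL were negative for all 8 genes under every scaling, filter, tool and left-out library that was run. Scaling shifted the median log2 change of all genes, in VCR against NC by -0.12 with DESeq2 size factors, 0.39 with library size, 0.17 with upper quartiles and -1.92 with Sertoli genes. Relative to the shift under each scaling the genes stayed at -3.74 to -1.61 in VCR against NC, -3.23 to -1.03 in High-VCR against ALL and -1.33 to -0.62 in Low-VCR against ALL. Among the 8 genes, the number called in Low-VCR against ALL was 4 with DESeq2 size factors, 2 with upper quartiles, 8 with Sertoli scaling, 8 with only the groups compared and 6 with DESeq2. In High-VCR against Low-VCR it was 0 with Sertoli scaling, the replicate block, only the groups compared and limma voom, and 2 with DESeq2. In Low-VCR against VCR it was 2 with Sertoli scaling, 0 with only the groups compared and 7 with DESeq2 and with limma voom, and in the interaction for Low-VCR it was 1 with upper quartiles and with DESeq2. The cause was not tested.

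With each library left out, 8 genes were called in VCR against NC in every case, 5 to 7 in High-VCR against ALL, 0 to 2 in Low-VCR against ALL, 0 to 3 in High-VCR against Low-VCR, 2 to 7 in Low-VCR against VCR and 0 to 3 in the interaction for Low-VCR. In High-VCR against VCR, Tekt1 ranged over -0.17 to 0.88, Tekt2 over -0.083 to 0.50, Tekt3 over -0.30 to 0.86 and Tekt4 over -0.15 to 0.53 on the log2 scale, and in the interaction for High-VCR, Tekt1 over -0.081 to 0.98, Tekt3 over -0.24 to 0.92 and Tekt4 over -0.092 to 0.59. Same-numbered libraries were taken as paired only where all 4 correlations of their deviations from the group means were over 0.1, which held in no comparison. In High-VCR against Low-VCR they were 0.0027 to 0.18, with 2 over 0.1. The replicate block moved Tekt2 in High-VCR against Low-VCR to -2.02 (edgeR adjusted p 0.0622) and changed no other call.

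Levels relative to germ cell genes depended on the list. With elongating spermatid genes, Tekt1, Tekt3, Tekt5 and Odf1 turned to -0.031, -0.24, -0.23 and -0.10 in VCR against NC, and Tekt1, Tekt3 and Tekt5 to -0.16, -0.31 and -0.16 in Low-VCR against ALL and -0.74, -1.05 and -0.60 in High-VCR against ALL. With pachytene genes, Tekt1, Tekt3, Tekt5, Odf1, Odf2 and Odf4 turned to -0.87, -1.08, -1.06, -0.94, -0.62 and -0.10 in VCR against NC, Tekt1, Tekt3 and Tekt5 to -0.20, -0.34 and -0.19 in Low-VCR against ALL, and Tekt1, Tekt3, Tekt5 and Odf2 to -0.85, -1.16, -0.71 and -0.053 in High-VCR against ALL. With a pseudocount of 0.5 CPM, Tekt2 in Low-VCR against ALL was at 0.0018.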
